A study of Homo sapiens with 12 samples.

Results

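Of the 26641 genes in the count table, 56 were expressed in every control line and fell strongly when dCas9-KRAB was recruited to LTR5HS, without falling below the controls when dCas9-VPR was recruited to the same elements. LTR5HS elements are the long terminal repeats of the youngest human endogenous retroviruses of the HERVK family, and most of them stand alone in the genome as solo LTRs. An LTR carries the promoter and enhancer sequences of the provirus, is active in early embryonic and embryonal carcinoma cells, and can act on nearby host genes. KRAB is a repression domain that brings in TRIM28 and its partners and leads to H3K9me3 heterochromatin, and VPR is a fusion of 3 transactivation domains, so that the same guide array gives CRISPR interference (CRISPRi) with the former and CRISPR activation (CRISPRa) with the latter.

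RNA came from NCCIT, an established human embryonal carcinoma cell line that is kept as a pluripotent-like culture. All 6 lines carried an *S. pyogenes* dCas9 under doxycycline control, joined to VPR or to KRAB, together with 1 of 3 arrays of 12 guides. LTR5HS Sp has guides that pair with LTR5HS on a scaffold that *S. pyogenes* dCas9 binds and is called recruitment here, LTR5HS Sa has the same guides on a *S. aureus* scaffold that this dCas9 does not bind, and nontarget Sp has guides without a genomic target. Both latter arrays are called control. The lines are drug-selected populations made by 2 rounds of PiggyBac transposition, first with dCas9 and then with the array. Each combination of fusion and array is 1 line, and every line was given doxycycline for 4 days, so there were no uninduced or parental cells among the groups. Each line gave 2 independent replicate libraries, hence 2 recruitment and 4 control libraries per fusion, with between 13601701 and 69797411 counts assigned to genes. Only dCas9-KRAB nontarget Sp replicate 2 was far deeper than the others, of which the next deepest held 24840708. Expression is given as CPM, a gene's count scaled to the total count of its library, and 3 counts corresponded to between 0.0430 and 0.221 CPM. The defining markers of embryonal carcinoma and pluripotency (POU5F1, SOX2, NANOG, LIN28A, LIN28B, DPPA4, TDGF1, L1TD1, SALL4, DNMT3B, GDF3 and TERF1) were all 12 at 1 CPM or more in all 8 control libraries. Their summed level was between 5103 and 6502 CPM in the dCas9-KRAB controls but between 1265 and 1948 CPM in the dCas9-VPR controls. Each of the 12 had its lower mean in the dCas9-VPR controls. NANOG had means of 144 CPM in the dCas9-KRAB controls and 2.57 CPM in the dCas9-VPR controls, where its lowest library was at 1.10 CPM. In the same order the means were 181 and 14.9 CPM for TDGF1, 66.6 and 15.2 CPM for POU5F1, and 146 and 108 CPM for SALL4. The summed level of mesoderm markers was 8.01 to 18.6 CPM in the dCas9-KRAB controls and 164 to 299 CPM in the dCas9-VPR controls. Trophoblast markers summed to 126 to 197 and 392 to 540 CPM in that order. Endoderm markers summed to 0.441 to 1.55 and 4.65 to 7.22 CPM. Neural markers overlapped, and fibroblast or feeder markers were lower in the dCas9-VPR controls (186 to 220 and 121 to 184 CPM). In bulk RNA, fewer cells that express a gene and less RNA per cell cannot be told apart.

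The genes were chosen by their CPM. A gene had 1 CPM or more in all 8 control libraries, which 12970 genes did, its higher dCas9-KRAB recruitment library was at most 0.4 of the lowest dCas9-KRAB control, and its lower dCas9-VPR recruitment library was at least at the lowest dCas9-VPR control. Genes of several families were left out by name, among them the ZNF zinc finger genes, alkaline phosphatases, SERPINB genes, NF-kappaB subunits and PCAT14, which removed 17 genes. Another 13 genes met all conditions but the one on dCas9-VPR. Because both the CRISPRi and the CRISPRa libraries chose the genes, their values in those libraries are a description and are given without a test. The limit fell within a continuous range of ratios. Just inside it were UBE2Q2 at 0.396, PLA2G16 at 0.395, PTAR1 at 0.394 and CRYM at 0.392, and just outside it were MSTO1 at 0.401, ANKRD65 at 0.401, FCGBP at 0.402 and CHD1L at 0.408.

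In total, 47 of the 56 genes were annotated as protein-coding. They included genes of mitochondria and metabolism (SDHC, ABCB8, SLC25A16, TIMM50, RMND1, PRODH, ARMT1, ASRGL1, AKR1E2, CRYM and the peroxiredoxin PRDX1), of lipids, membranes and trafficking (FA2H, PLA2G16, LIPH, PTAR1, TBC1D23, RAB15, TMEM64 and ATG9B), and of the cell surface, the secretory pathway and the matrix (F11R, PROM1, SEMA4A, SLITRK2, HLA-DQB1, PROCR, VSIG10, KLRG2, FAM20A, CILP, VWA1, MMP24, ST6GAL1, SLC5A5 and SLC4A8). WDHD1, HKR1, SOCS4, DEPTOR, UBE2Q2, TRIM61, NRBP2, C2CD4C, TULP2, PIFO, FAM127A, SMIM10L2A and C10orf95 were the other protein-coding genes. The 9 remaining genes were the long non-coding RNAs LINC00665, LINC00847, LINC00937, LOC100287846, HEIH and RPARP-AS1, the snoRNA gene SNORD31 and the pseudogenes RPL13P5 and DSTNP2. They lay on 19 chromosomes. Their mean control level had a median of 27.2 CPM, compared with 33.5 CPM over the 12970 expressed genes, and per kb of gene model the medians were 9.62 and 9.65 CPM.

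The 12 guides are 16 bases long and were matched to hg38 with an NGG motif directly after the match, on either strand. Exact matches formed 648 clusters with at least 2 different guides, when matches within 1000 bp of each other were merged. The clusters were not sorted by repeat class. The paper predicts that the guides also match some copies of the related LTR5A and LTR5B repeats, so a cluster need not be an LTR5HS element. The cluster beside ARMT1 and RMND1 is shown whole, since it is the nearest cluster of both genes. It held 6 matches to 6 guides at chr6:151455361-151455852 (hg38), inside an intron of ARMT1, 2.90 kb downstream of the start of ARMT1 and 3.24 kb upstream of that of RMND1. The sites are given 5′ to 3′ on the strand that holds the match, with the NGG in capitals.
LTR5HS-1, minus strand, chr6:151455361-151455379: tactaagggaactcagAGG
LTR5HS-2, minus strand, chr6:151455589-151455607: aaaaccgccttagggcTGG
LTR5HS-9, plus strand, chr6:151455652-151455670: gacattccattgcccaGGG
LTR5HS-8, minus strand, chr6:151455741-151455759: taaagggtctgtgctgAGG
LTR5HS-4, minus strand, chr6:151455754-151455772: agcccgacacccgtaaAGG
LTR5HS-7, plus strand, chr6:151455834-151455852: aaccttggacaataccTGG
The match nearest to the start of 3 further genes is shown to place it against the gene: in an intron of WDHD1, between ABCB8 and ATG9B, and upstream of FAM20A, which lies in an intron of the long non-coding RNA LINC01482.
WDHD1, LTR5HS-1, plus strand, chr14:55025334-55025352: tactaagggaactcagAGG
ABCB8, LTR5HS-11, plus strand, chr7:151027931-151027949: gaaacgcccacaggtgTGG
FAM20A, LTR5HS-1, minus strand, chr17:68604143-68604161: tactaagggaactcagAGG

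Nearly all of the genes lay near such a cluster. Measured from the annotated start (or, where no strand was given, from the gene's edge), 22 of 56 were within 5 kb of a cluster, 38 within 20 kb and 48 (85.7%) within 50 kb, compared with 0.423%, 1.67% and 3.80% of the 15124 other genes that were tested with dCas9-KRAB and had a position. The median distance was 8.57 kb for the 56 genes and 1520 kb for the others. The distances did not enter the choice of the genes and were not tested. The clusters within 50 kb held between 2 and 6 guides, with a median of 5, and the median over all 648 clusters was 4. With up to 1 mismatch, 50 genes were within 50 kb, against 5.41% of the others.

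**Figure D1:**
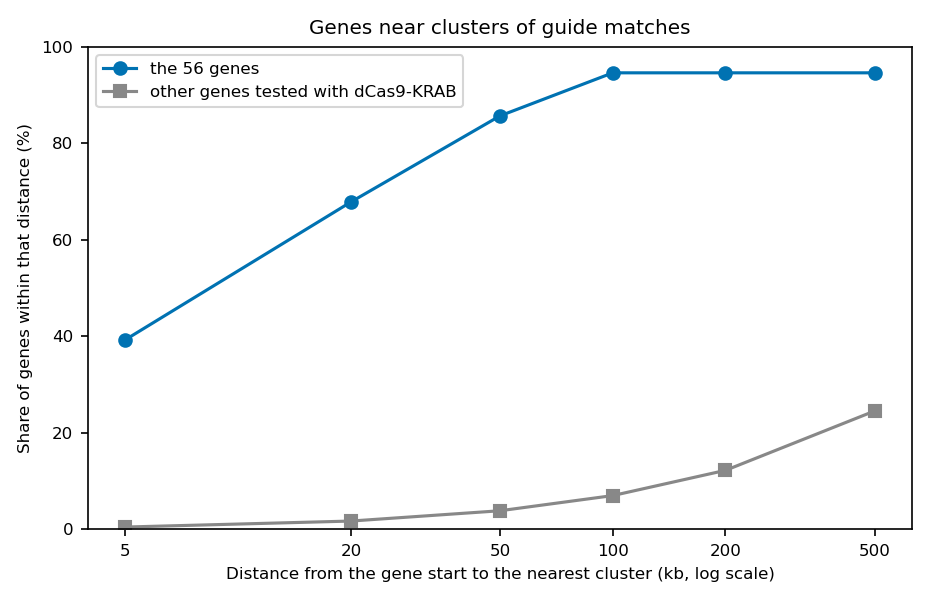
Cumulative share of genes (y axis, percent) by the distance from the gene start to the nearest cluster of guide matches (x axis, kb, log scale), for the 56 genes and for 15124 other tested genes. Within 20 kb the share is 67.9% for the 56 genes and 1.67% for the others.

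Position relative to the gene varied. The nearest cluster was inside the gene for 19 genes, upstream of it for 22 and beyond its far end for 9, and 3 genes had no strand. For the last 3 genes the nearest cluster was far away. It was 2322 kb from CRYM, a thyroid hormone binding protein, 2089 kb from SLC5A5, the sodium iodide symporter, and 1998 kb from AKR1E2, an aldo-keto reductase. Every other gene had a cluster within 100 kb. The nearest was DSTNP2, a pseudogene with no strand given, at 0.219 kb, followed by ABCB8, TIMM50 and SLC25A16 at 0.501, 0.550 and 1.04 kb. The farthest was SLITRK2, a neuronal transmembrane protein on chromosome X, at 96.3 kb. By annotation, 29 genes had their nearest cluster in introns, 18 between genes and 9 at an annotated exon of some gene.

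Allowing 1 mismatch, CRYM had a cluster of 6 guides at chr16:21221878-21222428, between genes and 55.9 kb downstream of its annotated start. The sites are shown because no exact cluster lay near this gene. Only the match of LTR5HS-10 was exact. Capitals mark the NGG, and for the others the substitution gives the guide's base, the position from the guide's 5′ end and the genomic base.
LTR5HS-10, plus strand, chr16:21221878-21221896: atagagaaagaaaagtGGG
LTR5HS-6, plus strand, G13A, chr16:21221980-21221998: taccatctcggaaaggGGG
LTR5HS-3, minus strand, G13A, chr16:21222168-21222186: aaaactgccttaaggcTGG
LTR5HS-9, plus strand, C8T, chr16:21222231-21222249: gacattctattgcccaGGG
LTR5HS-4, minus strand, G6A, chr16:21222330-21222348: agcccaacacccgtaaAGG
LTR5HS-7, plus strand, C3A, chr16:21222410-21222428: aaacttggacaataccTGG
For SLC5A5 and AKR1E2 the nearest cluster with up to 1 mismatch was still 531 kb and 1338 kb away.

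With dCas9-KRAB recruitment, mean expression of the 56 genes was between 2.84-fold and 44.7-fold lower than in the dCas9-KRAB controls, with a median of 6.26-fold. The mean was at least 5-fold lower for 36 genes and at least 10-fold lower for 14. All 56 were called lower by edgeR, beside 1.94% of all 15520 genes tested, and since this contrast chose them nothing is read from that count. Their median log2 fold change was -2.66, against 0.000596 over all genes tested.

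**Figure D2:**
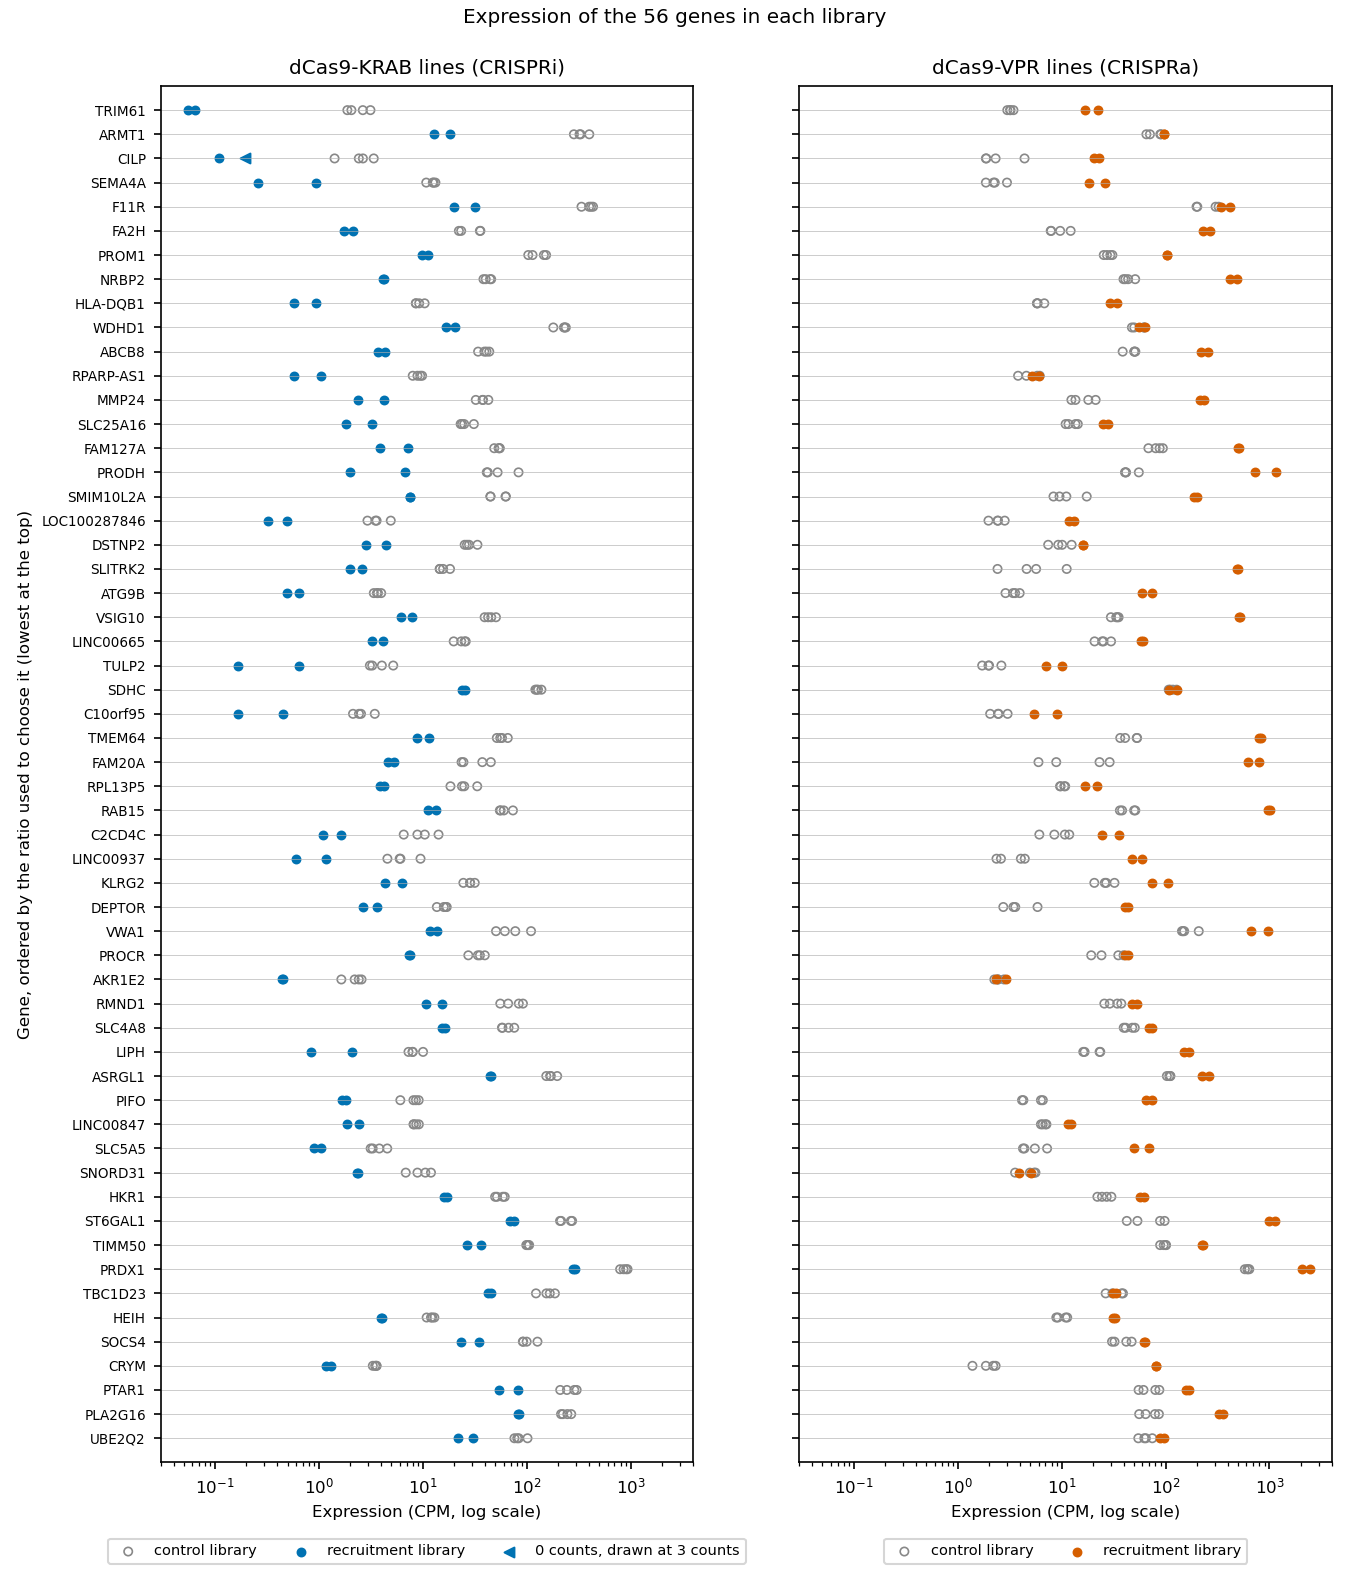
CPM (x axis, log scale) of each of the 56 genes (rows, ordered by the ratio that chose them) in every dCas9-KRAB library (left) and dCas9-VPR library (right). Filled points are the 2 recruitment libraries, open circles the 4 control libraries, and the triangle is a library with 0 counts. On the left no recruitment point reaches a control point, as the choice required, and on the right 50 genes have both recruitment points above every control.

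Of the 3 genes with the lowest ratios, TRIM61, ARMT1 and CILP, the first and the last were close to the detection limit. TRIM61, a tripartite motif protein, had 1 count in each recruitment library (0.0553 and 0.0648 CPM) and 1.88, 2.06, 2.65 and 3.14 CPM in the controls, and CILP, a cartilage matrix protein, had 2 and 0 counts against 1.42 to 3.38 CPM. From pooled counts TRIM61 was 43.1-fold lower (95% exact binomial interval 11.8 to 358) and CILP 34.4-fold (9.42 to 285), where the intervals cover counting error only. The size of either fall is known only within these wide intervals.

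Among the highly expressed genes, ARMT1, a protein-glutamate methyltransferase, fell farthest. It had 18.1 and 13.0 CPM with recruitment, compared with 285 and 330 CPM in LTR5HS Sa and 401 and 322 CPM in nontarget Sp, a log2 fold change of -4.44 (standard error 0.20). F11R, the junctional adhesion molecule A of epithelial tight junctions, had 31.6 and 19.96 CPM against 337 to 435 CPM in the 4 controls (-3.96, standard error 0.21). WDHD1, a chromatin-bound factor of DNA replication, had 20.6 and 16.9 CPM against 180 to 238 CPM. These genes lost most of their transcript in both recruitment libraries, with no overlap with the controls.

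PROM1, the surface glycoprotein also known as CD133, had 11.2 and 9.85 CPM with recruitment and 104 to 154 CPM in the controls. SEMA4A, a semaphorin, had 0.939 and 0.259 CPM against 10.8 to 13.2 CPM, so its replicates differed while both stayed far below the controls. FA2H, the hydroxylase that makes 2-hydroxy fatty acids for sphingolipids, had 2.16 and 1.75 CPM against 22.3 to 35.9 CPM. Its controls split by array, with 35.5 and 35.9 CPM in LTR5HS Sa and 23.4 and 22.3 CPM in nontarget Sp.

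HLA-DQB1, a class II HLA chain, NRBP2, a pseudokinase, ABCB8, an ABC transporter of the inner mitochondrial membrane, and RPARP-AS1, a long non-coding RNA, completed the 12 genes with the lowest ratios. Their log2 fold changes were -3.59, -3.35, -3.30 and -3.47 (standard errors 0.26, 0.16, 0.18 and 0.27). For NRBP2, 4.20 and 4.15 CPM remained of 38.4 to 45.6 CPM. All 4 share exon sequence with an annotated gene on the opposite strand, and as the strand setting of the counting was not stated, reads of these partners cannot be told apart. The same holds for PRDX1, PRODH, SLC4A8, MMP24, DEPTOR, SLITRK2, ASRGL1, VSIG10, LINC00665 and PROCR, and for ATG9B and the pairs described below. F11R, PROM1 and LINC00937 share exon sequence with annotated genes on the same strand (ENSG00000270149, FGFBP2 and pseudogenes, in that order). Reads of these partners cannot be told apart either.

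The most abundant gene was PRDX1, a peroxide-reducing enzyme, with 793 to 934 CPM in the dCas9-KRAB controls and 290 and 281 CPM with recruitment, a log2 fold change of -1.63 (standard error 0.11). PTAR1, a prenyltransferase subunit, ST6GAL1, which adds sialic acid to glycoproteins, and PLA2G16, a phospholipase, were also among the 6 genes with the highest control levels, together with ARMT1 and F11R. PTAR1 kept 82.9 and 54.4 CPM of 210 to 303 CPM, ST6GAL1 69.1 and 75.5 CPM of 209 to 274 CPM, and PLA2G16 84.7 and 82.6 CPM of 214 to 268 CPM. The choice required that the recruitment libraries of these 4 genes lie apart from the controls, and their margin was near the limit of 0.4.

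Other genes of mitochondria and metabolism were reduced to different degrees. SLC25A16, a mitochondrial carrier, had 3.26 and 1.81 CPM against 23.2 to 31.0 CPM, and SDHC had 24.0 and 25.5 CPM against 121 to 139 CPM. TIMM50, which helps to import proteins through the inner membrane, kept more, with 26.9 and 36.0 CPM against 99.2 to 106 CPM. ASRGL1, an asparaginase-like enzyme, had 45.0 and 44.3 CPM against 154 to 197 CPM, and PRODH had 6.74 and 2.01 CPM against 41.3 to 83.5 CPM, the least even of these genes between replicates.

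Among surface and matrix genes, VWA1, a matrix protein, had 13.9 and 11.8 CPM against 50.7 to 110 CPM, and LIPH, a lipase, had 2.1 and 0.843 CPM against 7.29 to 10.1 CPM. SLITRK2 had 2.60 and 2.01 CPM against 14.6 to 18.3 CPM. DEPTOR, an inhibitor of mTOR, had 2.65 and 3.63 CPM against 13.7 to 17.02 CPM, and UBE2Q2, a ubiquitin-conjugating enzyme and the last gene inside the limit, had 30.2 and 21.8 CPM against 76.3 to 102 CPM. HKR1, a zinc finger gene with a KRAB domain of its own, had 15.9 and 17.2 CPM against 49.7 to 61.5 CPM.

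The non-coding genes covered the same range. LINC00665 had 3.26 and 4.15 CPM against 19.9 to 25.9 CPM, and LINC00937 had 0.608 and 1.17 CPM against 4.57 to 9.52 CPM. SNORD31 lies in an intron of SNHG1 and had 2.38 and 2.33 CPM against 6.86 to 12.01 CPM. As the libraries were made from oligo-dT purified RNA, its counts need not be those of the mature snoRNA. The 3 genes far from any exact cluster had a median log2 fold change of -1.94. CRYM had 1.16 and 1.30 CPM against 3.31 to 3.596 CPM, SLC5A5 1.05 and 0.907 CPM against 3.15 to 4.56 CPM, and AKR1E2 0.442 and 0.454 CPM against 1.65 to 2.58 CPM.

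With dCas9-VPR recruitment, the mean of the 56 genes ranged from 0.910 to 83.1 times that of the dCas9-VPR controls, with a median of 3.89. It was at least 2 times the control mean for 40 genes, at least 10 times for 17 and at least 20 times for 6. edgeR called 49 higher, beside 15.7% of all 16271 genes tested, a count to which the condition on these libraries contributes. Both recruitment libraries stood above all 4 controls for 50 genes, as they did for 16.04% of the expressed genes.

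The 6 genes that rose most were SLITRK2, FAM20A, CRYM, FA2H, RAB15 and PRODH. SLITRK2 had 489 and 504 CPM with recruitment and 11.2, 5.69, 4.61 and 2.42 CPM in the controls, a log2 fold change of 6.504 (standard error 0.43), with its nearest exact cluster 96.3 kb upstream. That cluster lies in an intron of a long non-coding RNA (ENSG00000286085) that shares exon sequence with SLITRK2 on the opposite strand, and reads of the RNA and of SLITRK2 cannot be told apart. FAM20A, a pseudokinase needed for enamel formation, had 623 and 795 CPM against 5.99 to 29.0 CPM (5.54, standard error 0.54). CRYM had 81.0 and 80.2 CPM against 1.39 to 2.32 CPM (5.50, standard error 0.18). Each of these was far above its controls in both libraries.

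FA2H reached 230 and 269 CPM from 7.86 to 12.2 CPM, RAB15, a small GTPase of endosomes, 972 and 1012 CPM from 36.4 to 51.2 CPM, and PRODH, the first enzyme of proline breakdown, 721 and 1165 CPM from 40.8 to 55.4 CPM. Mean expression of SLITRK2 was thus 216-fold higher with dCas9-VPR recruitment than with dCas9-KRAB recruitment. Over the 56 genes this ratio had a median of 16.4 and a lowest value of 0.744. The ratio also holds any difference between the fusions without recruitment. It was highest for CILP, at 393, which rests on its 2 counts with dCas9-KRAB.

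At the other end stood the genes with the smallest change. SNORD31 had 3.87 and 5.03 CPM with dCas9-VPR recruitment and 3.57 to 5.61 CPM in the controls, a log2 fold change of 0.0018. TBC1D23, a Golgi protein that captures endosomal vesicles, had 31.5 and 33.7 CPM against 26.6 to 39.0 CPM (0.10, standard error 0.16). SDHC, a membrane anchor of succinate dehydrogenase, had 109 and 130 CPM against 107 to 128 CPM (0.18, standard error 0.13), and AKR1E2 had 2.35 and 2.91 CPM against 2.25 to 2.79 CPM (0.22, standard error 0.23). WDHD1 (55 and 63.3 CPM against 47.5 to 62.2 CPM) and RPARP-AS1 (6.002 and 5.24 CPM against 3.81 to 6.16 CPM) also overlapped their controls, so the groups were not separated for 6 of 56 genes.

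Between these ends, HLA-DQB1 rose to 34.0 and 29.1 CPM from 5.80 to 6.82 CPM, SLC5A5 to 49.3 and 69.3 CPM from 4.25 to 7.26 CPM, and LIPH to 168 and 151 CPM from 16.2 to 23.6 CPM. PRDX1 reached 2433 and 2068 CPM from 580 to 640 CPM.

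How far a gene fell with dCas9-KRAB said little about how far it rose with dCas9-VPR. Over the 56 genes the log2 fold changes had a Pearson r of -0.12 and a Spearman rho of -0.17, a description across genes that share libraries within each fusion and were selected on both. The rise with dCas9-VPR differed by the position of the cluster. This was not tested, since the libraries chose the genes. The 22 genes with an upstream cluster had a median log2 fold change of 2.94 with dCas9-VPR, and the 19 genes with the cluster inside the gene had 1.33. With dCas9-KRAB the medians were -2.72 and -2.52. Of the 19 genes, 8 rose by less than 2 times in mean and 4 by at least 10 times, and of the 22 genes, 3 and 9 did. VSIG10, TMEM64, MMP24 and DEPTOR were the 4 genes with an internal cluster and a rise of at least 10 times, so the positions overlapped in response. For VSIG10 and TMEM64, as for PRDX1 and HKR1, the cluster was inside the annotated gene but upstream of the start from which distances were measured. Without these 4 genes, the 15 remaining with an internal cluster had medians of 0.80 with dCas9-VPR and -3.33 with dCas9-KRAB, and the 4 had medians of 3.04 and -2.14. The genes in these sentences were named after their values had been seen.

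**Figure D3:**
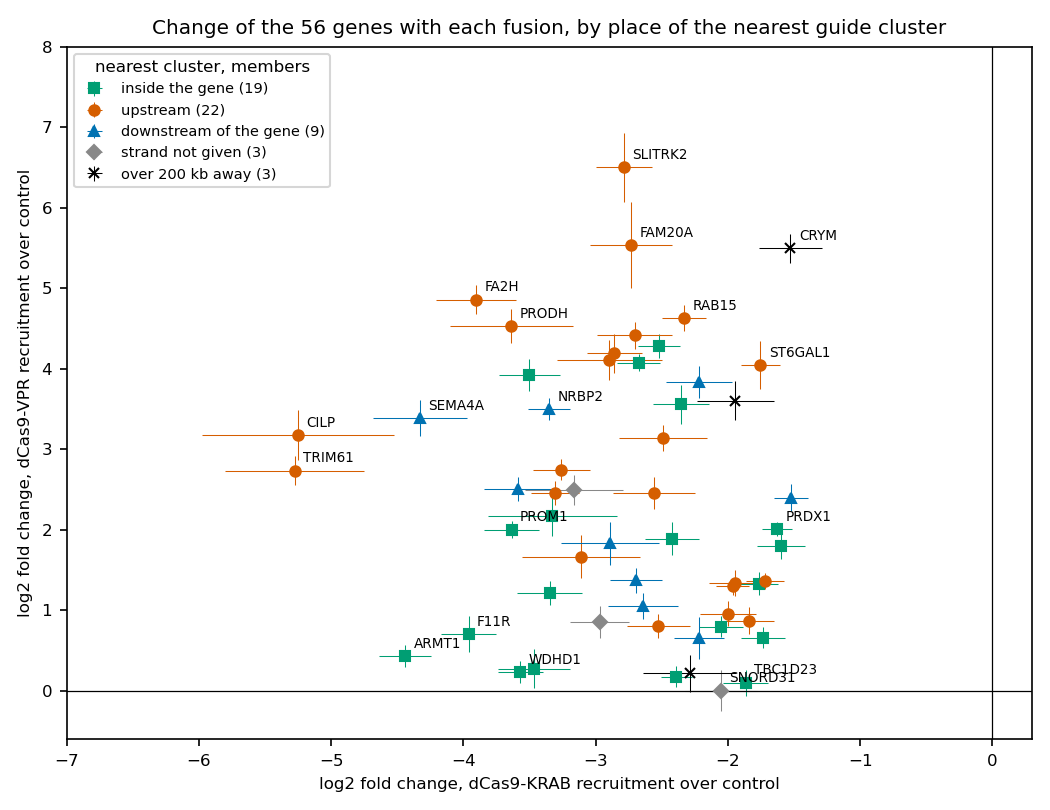
log2 fold change with dCas9-VPR recruitment (y axis) against that with dCas9-KRAB recruitment (x axis) for the 56 genes, with standard errors from edgeR as bars and symbols for the place of the nearest exact guide cluster. Genes with the cluster inside the gene (squares, n = 19) have a median of 1.33 on the y axis, and those with an upstream cluster (circles, n = 22) 2.94.

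Several of the genes came in pairs at 1 locus. Within 500 kb of each other there were 9 pairs, made of 18 genes, and 7 of the pairs shared their nearest cluster. ARMT1 and RMND1, which is needed for mitochondrial translation, start 0.340 kb apart in opposite directions. RMND1 fell from 55.7 to 92.1 CPM in the controls to 15.5 and 10.7 CPM, less than its partner, with log2 fold changes of -2.53 and -4.44. With dCas9-VPR recruitment the log2 fold changes were 0.80 and 0.43.

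WDHD1 and SOCS4, a suppressor of cytokine signalling, start 0.137 kb apart, again in opposite directions. SOCS4 had 34.7 and 23.5 CPM with dCas9-KRAB recruitment against 91.9 to 127 CPM, and its log2 fold change of -1.84 was smaller in size than the -3.57 of WDHD1. In 5 of the pairs the shared cluster lay inside 1 of the genes. That gene fell more than its partner in 4 of them (ARMT1, WDHD1, MMP24 and RPARP-AS1) and less in 1 (HEIH).

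ABCB8 and ATG9B, an autophagy membrane protein, start 3.96 kb apart with the cluster in between, 0.501 kb upstream of ABCB8 and 3.09 kb upstream of ATG9B. ATG9B fell to 0.497 and 0.648 CPM from 3.38 to 3.98 CPM and rose with dCas9-VPR to 60.0 and 74.8 CPM from 2.89 to 3.95 CPM, a log2 fold change of 4.42 that compares with 2.46 for ABCB8. It shares exon sequence with NOS3 on the opposite strand. MMP24, a membrane-type metalloproteinase, and PROCR, the endothelial protein C receptor, start 54.6 kb apart. The nearest cluster of both lies inside MMP24, 35.6 kb from its start and 90.2 kb from that of PROCR. MMP24 rose by 3.92 on the log2 scale with dCas9-VPR and PROCR by 0.65, and with dCas9-KRAB they fell by 3.50 and 2.22.

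In the 3 other pairs with a shared cluster, C10orf95 with RPARP-AS1, LINC00847 with HEIH and RPL13P5 with DSTNP2, the partners overlap each other or the same neighbouring genes, and the counts of one may hold reads of the other. Their log2 fold changes with dCas9-KRAB were -3.11 and -3.47, -1.999 and -1.60, and -2.64 and -2.97. The last 2 pairs, F11R with SDHC (293 kb apart) and FAM127A with SMIM10L2A (390 kb apart), had separate nearest clusters. FAM127A, RPL13P5, DSTNP2, HLA-DQB1 and SMIM10L2A belong to families with similar copies, so part of their reads may be assigned ambiguously.

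Some genes around the 56 also changed. Of 175 other tested genes that start within 100 kb of 1 of the 56, 35 (20%) were called lower with dCas9-KRAB and 0 higher at the adjusted threshold, against 1.94% of all genes called lower, and 68 of 172 were called higher with dCas9-VPR, against 15.7%. The median log2 fold changes of these neighbours were -0.27 and 0.39. Neighbours with a guide cluster of their own were not set apart in these counts. Within 50 kb, 26 of 82 (31.7%) were called lower, and within 200 kb 42 of 322 (13.0%). Without dCas9-KRAB recruitment replicate 1 or 2 the count of 35 was 20 or 18. Of the 175 neighbours, 5 belong to families that were left out by name (ITLN2, NFKB2, ZNF75D, ZNF527 and ZNF449), and all 5 were called lower. NFKB2 and ZNF75D met every condition on CPM. Without the 5, 30 of 170 neighbours were called lower. Each of these 170 missed at least 1 condition on CPM, so the count depends on the choice of the 56.

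Of the neighbours called lower, the largest falls were those of RARRES3, ITLN2, HLA-DQA1, NIT2, LINC01535 and C9orf135. RARRES3, a retinoid-induced phospholipase of the same family as PLA2G16 and 77.6 kb from it, had 0 counts in both recruitment libraries and 0.882 to 2.05 CPM in the controls, which is at least 8.22-fold lower against a floor of 3 counts per library. ITLN2, an intelectin 66.3 kb from F11R, had 0.111 and 0.0648 CPM against 1.59 to 1.94 CPM. HLA-DQA1, the partner chain of HLA-DQB1, had 0.0553 and 0.0648 CPM against 0.498 to 1.17 CPM. All 3 were expressed at low levels.

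NIT2, an amidase near TBC1D23, had 3.59 and 1.94 CPM against 28.4 to 35.5 CPM. Like TBC1D23 it did not rise with dCas9-VPR, with 11.4 and 14.4 CPM against 17.2 to 21.8 CPM, which kept it out of the 56. LINC01535 near HKR1 had 0.221 and 0.130 CPM with dCas9-KRAB recruitment against 1.60 to 2.27 CPM. With dCas9-VPR recruitment it had 1.69 and 2.85 CPM against 2.37 to 3.18 CPM, and was kept out in the same way. NIT2 and LINC01535 start 73.8 kb from TBC1D23 and 82.8 kb from HKR1. Their nearest exact clusters were 1.72 kb and 0.548 kb from their own starts. C9orf135, 60.8 kb from PTAR1, had 1.44 and 1.17 CPM with dCas9-KRAB recruitment against 8.45 to 15.5 CPM, and 18.2 and 16.6 CPM with dCas9-VPR recruitment against 0.685 to 1.499 CPM. Other snoRNA genes beside SNORD31 (SNORD25, SNORD26, SNORD27, SNORD28, SNORD30 and SNORD22) and their host gene SNHG1 were also called lower. All of them start within 2.60 kb of SNORD31. Each is counted as a separate neighbour among the 35 called lower within 100 kb and the 26 within 50 kb, though they belong to 1 locus. They were named after their values had been seen, and reads of the host gene can fall on them.

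Without recruitment, the level of many of the genes already differed between the fusions. All 4 dCas9-KRAB controls were above all 4 dCas9-VPR controls for 34 genes (60.7%), which was the case for 18.8% of the expressed genes. The reverse held for 3 (FAM127A, VWA1 and LIPH), and for 30.4% of the expressed genes. The median ratio of the means was 1.53. edgeR called 42 genes higher with dCas9-KRAB, beside 30.5% of all 16192 genes tested. The rule divides by the dCas9-KRAB controls and compares with the dCas9-VPR controls, so these values are also a description, and fusion and cell line cannot be told apart.

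The widest differences were those of SEMA4A, SMIM10L2A, TBC1D23, PROM1 and ARMT1. SEMA4A had 10.8 to 13.2 CPM in the dCas9-KRAB controls and 1.87 to 2.98 CPM in the dCas9-VPR controls. SMIM10L2A had 44.7 to 63.1 CPM and 8.36 to 17.5 CPM, TBC1D23 123 to 187 CPM and 26.6 to 39.0 CPM, PROM1 104 to 154 CPM and 25.5 to 30.8 CPM, and ARMT1 285 to 401 CPM and 65.5 to 90.6 CPM. None of these ranges overlapped. The summed level of the pluripotency markers given above differed between the same libraries in the same direction, and its part in these values was not tested.

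**Figure D4:**
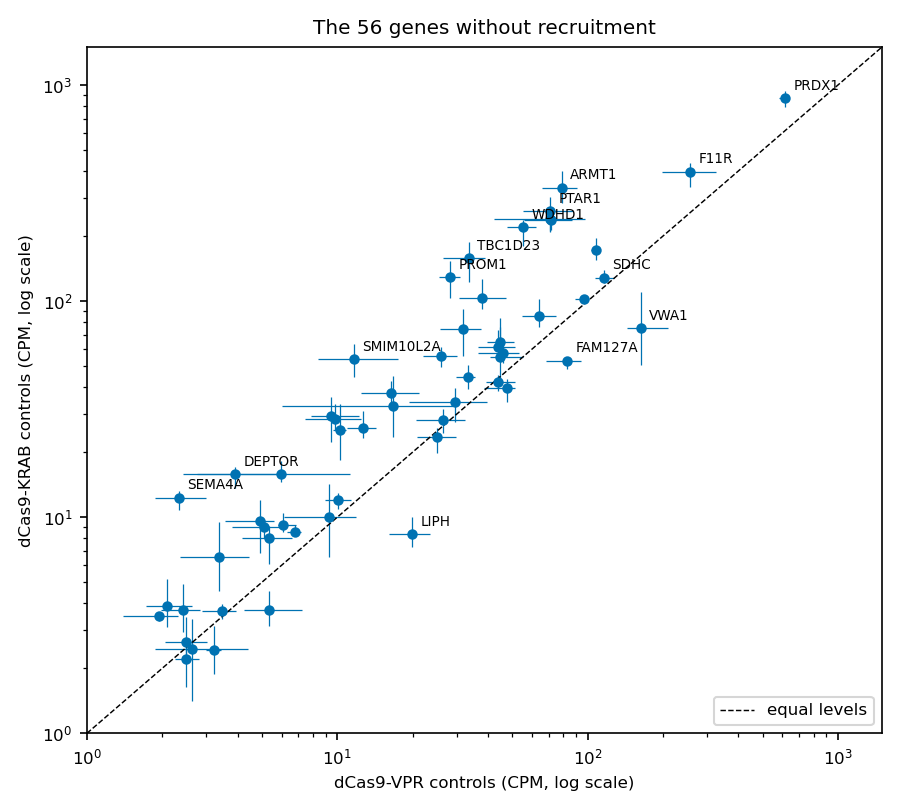
Mean CPM of the 56 genes in the dCas9-KRAB controls (y axis) against the dCas9-VPR controls (x axis), both on log scales, with bars from the lowest to the highest of 4 libraries. All 4 dCas9-KRAB controls are above all 4 dCas9-VPR controls for 34 genes, and ARMT1, WDHD1, TBC1D23, PROM1 and SEMA4A lie well above the line of equal levels.

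Set against the controls of the other fusion, the recruitment libraries fell into several classes. For 10 genes, ARMT1, PROM1, WDHD1, RPARP-AS1, DSTNP2, RMND1, SNORD31, TBC1D23, SOCS4 and PTAR1, the dCas9-VPR recruitment libraries stayed below every dCas9-KRAB control. PROM1, for instance, rose to 103 and 103 CPM with dCas9-VPR recruitment from 25.5 to 30.8 CPM, still below the 104 CPM of its lowest dCas9-KRAB control. For 38 genes they were above every dCas9-KRAB control. Conversely, TBC1D23 kept 45.1 and 42.6 CPM with dCas9-KRAB recruitment, above its dCas9-VPR controls, and SLITRK2, DEPTOR, ST6GAL1, SOCS4, PTAR1 and PLA2G16 overlapped theirs. The other 49 genes were below both sets of controls.

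The control arrays allow a comparison that was not itself a condition of the choice, LTR5HS Sa against nontarget Sp, with 2 libraries each. The same libraries did enter the choice, through the minimum of 1 CPM and the lowest control of each fusion. The counts and p-values for the 56 genes are therefore not independent of that choice. With dCas9-KRAB, 0 of the 56 genes passed the threshold in edgeR (13 at an unadjusted p under 0.05, and 3 with DESeq2), beside 0.568% of 16192 genes. With dCas9-VPR, 5 genes passed (8 with DESeq2), beside 5.01% of all genes. FAM20A and ST6GAL1 were higher with LTR5HS Sa, and F11R, PROCR and PLA2G16 were lower.

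FAM20A had 29.0 and 23.2 CPM in dCas9-VPR LTR5HS Sa and 8.88 and 5.99 CPM in nontarget Sp, a log2 difference of 1.81 (standard error 0.20, adjusted p = 0.00082). In the dCas9-KRAB lines it had 45.2 and 37.4 CPM against 24.6 and 23.6 CPM (0.76, standard error 0.18, adjusted p = 0.13). The array that stood higher was the same for both fusions, though only the former passed the threshold, and the difference between the fusions had an adjusted p of 0.073. ST6GAL1 had 98.0 and 88.6 CPM against 53.7 and 42.4 CPM with dCas9-VPR (0.96, standard error 0.12, adjusted p = 0.0019) but 209 and 214 CPM against 274 and 267 CPM with dCas9-KRAB (-0.37, standard error 0.12, adjusted p = 0.30). Here the arrays differed in opposite directions, and the difference between the fusions itself passed the threshold (-1.33, adjusted p = 0.0046).

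F11R had 202 and 199 CPM in dCas9-VPR LTR5HS Sa and 304 and 325 CPM in nontarget Sp (-0.65, adjusted p = 0.011), PROCR 24.2 and 19.3 CPM against 39.5 and 35.1 CPM (-0.78, adjusted p = 0.031), and PLA2G16 64.4 and 55.8 CPM against 86.4 and 79.2 CPM (-0.47, adjusted p = 0.042). These 3 calls were less stable. Without dCas9-VPR LTR5HS Sa replicate 1 only 2 of the 56 genes were called, and F11R had an adjusted p of 0.077, PROCR of 0.073 and PLA2G16 of 0.11. Without LTR5HS Sa replicate 2 their adjusted p values were 0.084, 0.24 and 0.32, and PROCR and PLA2G16 also lost the call without nontarget Sp replicate 1, at 0.066 and 0.092. PLA2G16 lost it without any 1 of the 4 dCas9-KRAB controls too, at between 0.056 and 0.065. The choice of control array moved the fold changes of these genes. F11R rose by 1.07 on the log2 scale with dCas9-VPR recruitment against LTR5HS Sa alone and by 0.41 against nontarget Sp alone, and FAM20A rose by 4.90 and 6.71.

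**Figure D5:**
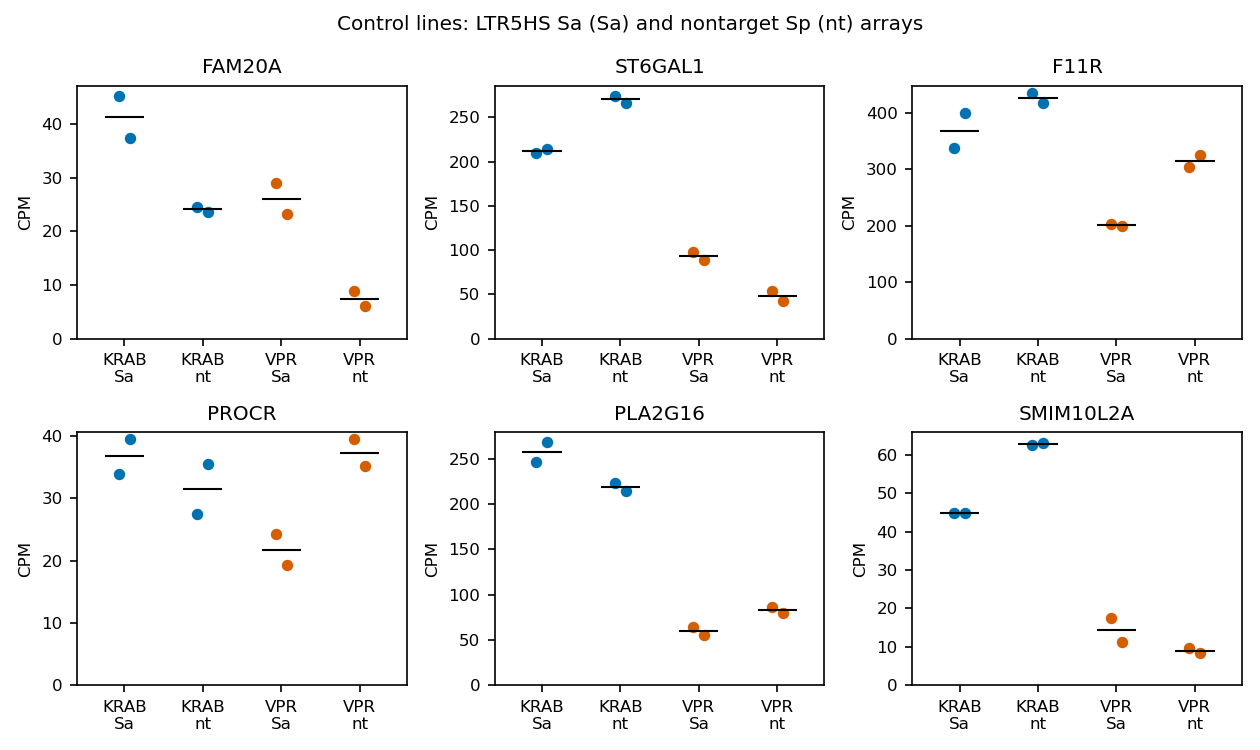
CPM (y axis, from 0) of 6 genes in the control lines, with 1 point per library and a line at the mean of 2 replicates. Sa is LTR5HS Sa and nt is nontarget Sp. In the dCas9-VPR lines FAM20A and ST6GAL1 are higher with Sa, and F11R, PROCR and PLA2G16 are higher with nt. SMIM10L2A is the other gene for which the difference between fusions passed the threshold.

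No gene of the lists fixed for the machinery and the state of the cells was among the 56. Of 19 genes of the KRAB silencing machinery (TRIM28, SETDB1, the HP1 proteins and others), 0 passed the threshold with dCas9-KRAB recruitment. Their median log2 fold change was -0.10, against 0.000596 over all genes. Likewise 0 of 11 Mediator and coactivator genes (median 0.06), 0 of 10 housekeeping genes (median 0.04) and 0 of the 12 defining markers (median -0.19) passed the threshold. Beside the 1.94% of all genes called lower, 2 of 11 tested naive pluripotency genes were called lower, DNMT3L (-2.08) and SUSD2 (-0.94). DNMT3L was just inside the threshold (edgeR adjusted p = 0.0496) and low, with means of 0.375 CPM with recruitment and 1.52 CPM in the controls. Beside the 0.831% of all genes called higher, 2 of 4 trophoblast genes were called higher, GATA3 (1.47) and TFAP2A (1.07), and of 6 fibroblast or feeder genes 1 was, LUM (3.47), which had a mean of 3.50 CPM with recruitment and 0.320 CPM in the controls. Of 1 endoderm, 3 mesoderm and 5 neural genes tested, 0 passed the threshold. The summed level of the trophoblast list was between 307 and 367 CPM with dCas9-KRAB recruitment and between 126 and 197 CPM in the dCas9-KRAB controls, nearly all of it TFAP2A, with means of 316 and 149 CPM. GATA3 had means of 4.84 and 1.73 CPM, and KRT7 and CGA were below 0.2 CPM. The part of this in the falls above was not tested.

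With dCas9-VPR recruitment more of the listed genes changed, beside 15.7% of all genes called higher and 12.3% called lower. Of 5 tested fibroblast or feeder genes 3 were higher, COL1A1 (5.41), POSTN (1.52) and THY1 (0.97). The summed level of that list was between 2961 and 3041 CPM with recruitment and between 121 and 184 CPM in the dCas9-VPR controls, nearly all of it COL1A1, a collagen chain, with means of 2880 and 74.3 CPM. Of 12 naive pluripotency genes 4 were higher, ARGFX (4.63), TFCP2L1 (2.41), TBX3 (2.38) and SUSD2 (1.54), and 2 were lower, PRDM14 (-0.91) and ZFP42 (-0.56).

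Of 4 trophoblast genes 2 were higher, CDX2 (3.72) and GATA3 (1.48), of 4 mesoderm genes 1, EOMES (4.29), and of 3 endoderm genes 1, GATA6 (1.29). TFAP2A (-0.97) and HAND1 (-0.02), also trophoblast genes, did not pass the threshold. TFAP2A had means of 105 CPM with recruitment and 226 CPM in the dCas9-VPR controls. The summed level of the trophoblast list was between 311 and 363 CPM with recruitment and between 392 and 540 CPM in these controls. Of the 12 defining markers, L1TD1 was higher (1.62) and SOX2 (-1.24), DNMT3B (-0.62) and TERF1 (-0.41) were lower. Of the KRAB silencing machinery 2 of 19 were higher and 2 lower, of the housekeeping genes 1 of 10 was higher and 3 lower, and of 11 Mediator and coactivator genes 0 passed the threshold. The part of these changes in the rise of the 56 genes with dCas9-VPR was not tested.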

How the data were processed

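RNA was sequenced from 6 NCCIT lines in 2 replicates each. As given by the submitters' processing notes and the paper's methods, the authors trimmed reads (cutadapt 1.8.1), aligned them to hg38 (HISAT2 2.1.0) and assigned them to genes (featureCounts 1.4.6-p2). What the authors deposited is an unnormalized table of whole-number counts, 1 column a library, with a gene length column that was used for levels per kb. The annotation and the strand setting are not given in the sources used here.

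CPM used column totals. The tests were run in edgeR 4.0.16 under R 4.3.3 (filterByExpr, TMM, quasi-likelihood F-test, Benjamini-Hochberg adjustment over all genes tested, threshold 0.05), which gave all log2 fold changes and standard errors. Recruitment was compared with pooled control within each fusion, and control arrays were compared in a fit of the 8 control libraries. p-values rest on 2 libraries per line. Guide sequences were taken from the study's list, and starts from GENCODE 44 or RefSeq (25377 of 26641 genes). Exons of 22 of the 56 genes overlap another gene.

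The members and the lists were chosen with earlier results of these data known. Named genes are the 12 with the lowest ratio, the 6 with the highest control level, the 6 highest and 4 lowest in CRISPRa, the 5 largest differences called in each comparison of controls, the 4 genes on each side of the limit, the 4 nearest to and 4 farthest from a cluster, the 6 neighbours called lower with the lowest fold change, and list genes called with CRISPRi. List genes called with CRISPRa, partners in pairs and others were named after their values had been seen. The alternatives were DESeq2 1.42.0 (size factors or Wald test), an unfiltered fit, a minimum of 10 counts per library, the replicate number as a block, all 12 libraries in 1 fit, each control array alone, each library left out, and other limits for the rule, the clusters and the neighbours.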

Additional observations from a re-analysis of the deposited data

Results flagged for a closer look

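The difference between the LTR5HS Sa and the nontarget Sp array was not the same in both fusions for 2 of the 56 genes, by edgeR's test of the interaction. The share of all genes that passed this test was not worked out, so the count is not read as a result about the 56 genes. For ST6GAL1 the log2 difference in the dCas9-KRAB lines minus that in the dCas9-VPR lines was -1.33 (adjusted p = 0.0046, from -0.37 and 0.96). For SMIM10L2A, a small membrane protein gene, it was -1.18 (adjusted p = 0.0495, from -0.51 and 0.67), just inside the threshold.

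In 5 of 112 groups of 4 control libraries, 1 library stood apart by Dixon's criterion (0.829 for 4 values), which flags about 1 in 20 groups by chance. In dCas9-VPR nontarget Sp replicate 2, VWA1 was at 209 CPM (144 to 151 CPM in the others), HLA-DQB1 at 6.82 CPM (5.80 to 5.89 CPM) and PRODH at 55.4 CPM (40.8 to 41.7 CPM). ABCB8 was at 38.7 CPM in dCas9-VPR nontarget Sp replicate 1 (49.98 to 51.3 CPM), and WDHD1 at 180 CPM in dCas9-KRAB LTR5HS Sa replicate 1 (228 to 238 CPM). These gaps were small beside the differences between recruitment and control.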

How the results depend on the processing

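Of 108 comparisons of a count or median with an alternative other than leaving out a library, 92 stayed close to the main value (counts within 1.5 times, medians within the genes' median standard error) and 16 moved. The rule chose 106 genes with any CPM above 0 in the controls in place of 56, and between 54 and 77 with 1 library left out. All genes lower with CRISPRi numbered 301, and 476 with all 12 libraries in 1 fit, 466 with DESeq2's Wald test and 152 to 312 with 1 library left out (173 and 152 without recruitment replicate 1 and 2). For CRISPRa 2552 became 1546 to 2548 (1623 and 1546 without recruitment replicate 1 and 2), with 45 to 50 of the 56 genes, and for CRISPRi 53 to 56 of them. The median CRISPRa log2 fold change was 2.05 to 2.27, and neighbours called lower were 18 to 38.

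The comparison of control arrays depended most on the settings. With dCas9-KRAB, 0 of the 56 genes became 1 with all 12 libraries in 1 fit, 3 with DESeq2's Wald test, 6 with no filter and 0 to 1 with 1 library left out. All genes called (92) became 38 with 10 counts in every library, 209 with DESeq2's Wald test, 567 with no filter and 44 to 180 with 1 library left out (55 and 44 without LTR5HS Sa replicate 1 and 2, 46 without nontarget Sp replicate 2, and 180 and 174 without dCas9-VPR nontarget Sp replicate 1 and 2). With dCas9-VPR, 5 became 8 with DESeq2's Wald test, 8 with no filter and 2 to 5, and all genes called (812) became 1693 with no filter and 220 to 844 (292 and 220 without dCas9-VPR LTR5HS Sa replicate 1 and 2). The cause was not tested.

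The labels do not say that a replicate number marks a shared day. Replicate differences correlated between lines with r between 0.055 and 0.37. With the replicate number as a block, the 56 genes called in the comparison of control arrays were 4 (dCas9-KRAB) and 10 (dCas9-VPR), and all genes called 357 and 1774. With the block, 322 genes were lower with CRISPRi (56 of the 56) and 2722 higher with CRISPRa (48), 42 of the 56 were higher in dCas9-KRAB controls, 37 neighbours were lower, and the medians were -2.65 and 2.08.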

Other observations

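The genes that met every condition but the one on dCas9-VPR numbered 13. The nearest exact cluster was within 10 kb downstream of the start for 8 of them, among these CEBPZ (5.46 kb), MRPL18 (4.42 kb), BARD1 (5.98 kb), NIT2 (1.72 kb) and DET1 (5.31 kb). CEBPZ had a mean of 48.7 CPM with dCas9-KRAB recruitment and 383 CPM in the controls, and 84.3 and 117 CPM with dCas9-VPR. DET1, a subunit of a ubiquitin ligase, had means of 2.19 and 14.6 CPM with dCas9-KRAB and 4.72 and 13.4 CPM with dCas9-VPR. BARD1, the partner of BRCA1, had means of 12.6 and 79.3 CPM and of 19.95 and 23.2 CPM. In edgeR, 4 of the 13 genes were called lower with dCas9-VPR recruitment, beside 12.3% of all genes tested. They were LINC01356, DET1, TTLL1 and CEBPZ, with log2 fold changes of -1.69, -1.37, -0.89 and -0.34. These libraries chose the genes, and the values are a description.

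TTLL1, a tubulin polyglutamylase, had means of 0.263 CPM with dCas9-KRAB recruitment and 7.06 CPM in the controls, yet its nearest exact cluster was 4077 kb away. C1orf74 had means of 0.425 and 1.90 CPM, with its nearest exact cluster 643 kb away. LINC01356 had means of 12.1 and 88.1 CPM.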
